A study of Mus musculus with 6 samples.

Results

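The epidermal growth factor (EGF) receptor genes described here are 5 ligand genes (Areg, Ereg, Hbegf, Tgfa and Btc), the receptor gene Egfr, and 2 genes of its feedback (Errfi1 and Phlda1). Their members were every non-control probe that carried 1 of these 8 names, which gave 16 probes among 41174, and 8 gene names among 27962. Each was followed in primary fibroblasts grown from mouse embryos and kept in 1 mM hydrogen peroxide (H2O2) for 2 h (2 arrays) or 4 h (2 arrays), or left untreated (0 h, 2 arrays). The labels name no strain, genotype or embryo age. The 2 arrays of a group are given as independent experiments, but the sources used here do not say what made them independent, so the p-values measure the spread between such samples. Untreated cells were measured at 0 h alone, and each time held 1 position on both slides, so neither the time in culture nor the slide position can be told apart from H2O2.

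The ligands are made as membrane proteins, and proteases of the ADAM family cut them loose at the cell surface. A freed ligand binds the receptor, which pairs with itself or with a related ErbB receptor, switches on its kinase and signals through adaptors to Ras and ERK. ERK signalling raises the transcripts of several ligands and of inhibitors of the receptor, so ligand and feedback genes are both known as early response genes of growth factor and stress signals.

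Signals are given as a percent of each array's 75th percentile signal, and changes as log2 differences of the scaled signals ± the standard error of the fit (n = 2 arrays a group) with a limma p adjusted over all 25885 tested probes. A probe was tested where both arrays of at least 1 group lay well above background, which held for 11 of the 16 member probes, and it rose or fell where the adjusted p was under 0.05. Areg and the dimmer Ereg probe passed that filter through their 2 h arrays alone, the group where they were highest, so they could pass only by being high there. Between 57.3% and 68.0% of spots per array lay well above background and none was saturated. The number of arrays limits the precision, and signals of different probes are not compared. The median log2 change of all tested probes was 0.10 at 2 h, 0.06 at 4 h and -0.07 for 4 h against 2 h. Scaled on spike-in controls it was -0.35, -0.20 and 0.12. Of the probes called at 2 h, 59.4% rose, against 42.6% with quantile normalization, 19.8% without scaling and 12.3% under spike-in scaling.

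The fibroblast label was checked against markers. All 10 fibroblast markers lay above background on all 6 arrays. So did 7 of 8 macrophage markers, 4 of 9 epithelial markers and 3 of 8 endothelial markers, while the epithelial genes Tacstd1, Cldn4 and Ocln and the endothelial genes Cdh5 and Tie1 did so on none. Several other markers rose at 2 h: 4 of 6 tested endothelial markers (Vwf by 1.81 on the log2 scale, Robo4 at least 5.43-fold, Pecam1 at least 2.26-fold, and Cldn5), 3 of 6 epithelial markers (Cdh1 at least 4.06-fold, Krt8 and Krt18) and 3 of 8 macrophage markers, and none of these 3 lists held a marker that fell at 2 h. Of all tested probes 21.2% rose and 14.5% fell at 2 h. Robo4, Pecam1 and Cdh1 lay above background on no untreated array, and Cldn5 and the macrophage gene Itgam on 1. These genes met the filter through treated arrays alone, where they were high, so they could pass only by being high there. The summed signal of the macrophage markers was between 1853% and 2000% in untreated cells, 2181% and 2206% at 2 h, and 2089% and 2223% at 4 h. That of the epithelial markers was 314% to 352%, 424% to 441% and 385% to 435% in the same order, that of the endothelial markers 47.3% to 54.0%, 98.7% to 110%, and 95.9% to 98.1%, and that of the fibroblast markers 84867% to 88878%, 105363% to 106062%, and 98522% to 103269%. These sums add signals of different probes, so the brightest lead them. Of the macrophage markers Lyzs gave 1721% and 1593% in untreated cells and 1896% and 1886% at 2 h. Its change at 2 h did not pass (0.19, adjusted p = 0.101). By the brightest probe of each gene, as in all these marker counts, 4 fibroblast markers rose and 1 fell at 2 h. The latter was Pdgfra (-1.08, adjusted p = 0.00131), whose other probe gave 0.04 (adjusted p = 0.874). Of those that rose, Col1a2 fell on its other probe (-1.01, adjusted p = 0.00697), and the other Col1a1 probes did not pass (0.12 and 0.09). The other Thy1 probe rose (0.42, adjusted p = 0.0186), and that of Vim was not tested. The part of other cell types in the values below was not tested. In RNA of a whole culture, a change in the number of cells of a type and a change of RNA per cell cannot be told apart.

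At 2 h in H2O2 2 ligand genes (Areg and Hbegf) and both feedback genes rose. So did 1 of the 2 probes named Ereg, whose place in that gene is in doubt as described below, while the receptor gene itself gave small or opposed values by probe. Of the 11 tested probes 6 rose and 1 fell at 2 h, where 35.7% of all tested probes were called (21.2% rose and 14.5% fell). Their median log2 change was 0.90, between -0.94 and 4.37. At 4 h 6 rose and 1 fell against untreated cells (all tested probes: 40.6% called, 23.0% rose, 17.6% fell), with a median of 0.24. Between 4 h and 2 h none rose and 3 fell (all tested probes: 28.1% called, 13.3% rose, 14.8% fell), with a median of -0.06. The arrays of both groups did not overlap for 9 of the 11 probes at 2 h, 10 at 4 h and 9 between the times, where 74.0%, 72.8% and 66.7% of all probes did not overlap. These counts and medians include Areg and the dimmer Ereg probe, which met the filter only through their high 2 h arrays. The median of 0.90 is the value of that Ereg probe, which did not pass. The probes that rose at 2 h also include the doubted Ereg probe and 1 Egfr probe whose sign turned without scaling and under spike-in scaling. The counts and medians are therefore no result about the genes as a group.

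**Figure D1:**
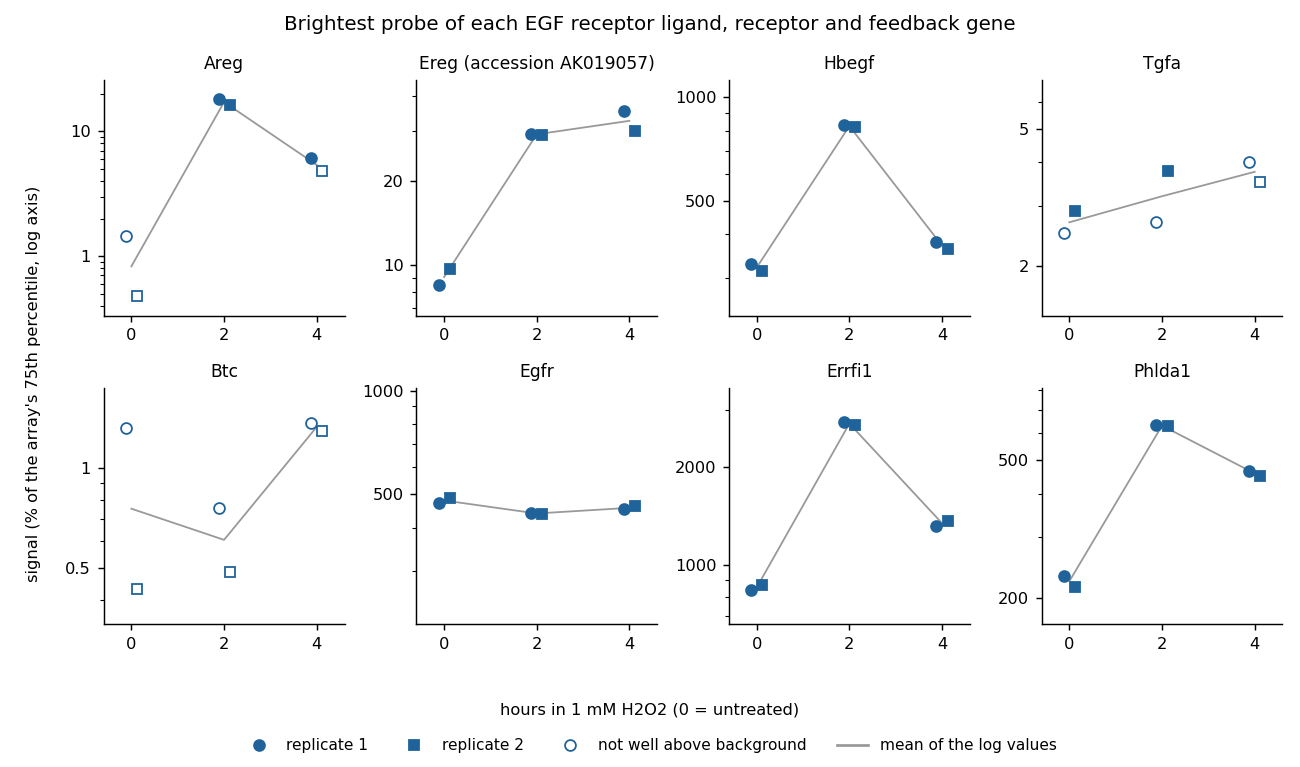
Signal of the brightest probe of each gene, as a percent of the array's 75th percentile on a log axis, against hours in 1 mM H2O2 (0 is untreated). Circles are replicate 1, squares replicate 2, open symbols lie not well above background, and lines join the means of the log values. Areg, Hbegf, Errfi1 and Phlda1 peak at 2 h, and Egfr is nearly flat. The brighter probe named Ereg, whose place in that gene is in doubt, stays high at 4 h.

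Among the ligands, Areg encodes amphiregulin, which binds the EGF receptor. Its 1 probe gave 1.44% and 0.478% in untreated cells (replicates 1 and 2), 18.0% and 16.3% at 2 h, and 6.07% and 4.76% at 4 h. Neither untreated array lay well above background, both 2 h arrays did, and of the 4 h arrays only replicate 1 did. The groups did not overlap. Areg rose at least 8.54-fold at 2 h (fitted log2 change 4.37 ± 0.54, adjusted p = 0.00525), with 3.65 and 5.10 on slides 1 and 2. At 4 h, with 1 of its 2 arrays above background, it rose at least 2.67-fold (2.70 ± 0.54, adjusted p = 0.0179), a call lost without either 4 h array (adjusted p = 0.0784 and 0.0596). Background correction by normexp with the 75th percentile ended both Areg calls, at a log2 change of 1.42 (adjusted p = 0.0698) at 2 h and 1.26 (adjusted p = 0.0665) at 4 h. Normexp with quantile normalization kept both at smaller changes, 1.06 (adjusted p = 0.000254) and 0.39 (adjusted p = 0.00701). Here "at least" folds set the mean of both arrays of the brighter group, also where 1 of them was dim, against the lowest signal of any probe that lay above background on the other arrays. Dim probes can lie above that signal, as Areg did on 4 h replicate 2 (4.76% against 3.30%). These folds, here and for the other genes, are therefore not strict lower bounds.

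Between the times, Areg was lower at 4 h than at 2 h on both slides (-1.57 and -1.78) without passing the test (-1.67 ± 0.54, 95% interval -3.08 to -0.27, adjusted p = 0.0814). It passed in the fit of these 4 arrays alone (adjusted p = 0.0121). The fits without either untreated array repeat that fit for this comparison and add nothing to it. Areg also passed under quantile normalization without normexp (-1.67, adjusted p = 0.0375) and with it (-0.67, adjusted p = 0.00181). Under normexp with the 75th percentile the difference was -0.16 (adjusted p = 0.747). The untreated pair, both dim, differed more between its arrays than the 2 h or the 4 h pair.

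The 250 bases before the Areg start are shown because they hold both a full cyclic AMP response element (CRE, TGACGTCA) and a TATA box (TATAAA), and those before the second annotated start of Errfi1, the feedback gene described further on, hold the same pair. The Egfr window is shown beside them as that of the receptor, which has neither. Sequences are from RefSeq, build GRCm38.p6, on the + strand, 5′ to 3′, and capitals mark the CRE and the TATA box.
Areg, chr5:91139349-91139598: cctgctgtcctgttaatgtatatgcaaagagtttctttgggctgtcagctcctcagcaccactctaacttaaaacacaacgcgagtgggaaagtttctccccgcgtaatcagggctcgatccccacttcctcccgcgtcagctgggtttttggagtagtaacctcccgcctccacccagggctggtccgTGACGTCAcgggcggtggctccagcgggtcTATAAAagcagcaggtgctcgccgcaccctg
Errfi1 second start, chr4:150854820-150855069: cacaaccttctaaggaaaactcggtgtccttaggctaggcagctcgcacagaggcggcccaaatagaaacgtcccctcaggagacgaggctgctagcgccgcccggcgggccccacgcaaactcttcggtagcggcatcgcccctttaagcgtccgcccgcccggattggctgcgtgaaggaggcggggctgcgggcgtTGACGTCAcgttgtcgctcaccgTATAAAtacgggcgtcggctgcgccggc
Egfr, chr11:16751953-16752202: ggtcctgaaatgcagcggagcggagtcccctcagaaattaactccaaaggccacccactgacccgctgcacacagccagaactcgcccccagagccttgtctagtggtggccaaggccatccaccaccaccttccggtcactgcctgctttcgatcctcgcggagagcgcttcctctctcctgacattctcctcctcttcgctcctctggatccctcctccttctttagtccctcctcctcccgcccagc
The first base of the CRE lay 61 bases before the Areg start and 51 before that Errfi1 start, and that of the TATA box 31 and 28 bases before. Of 32851 windows of this length in the table, 1.55% hold the CRE on either strand, 12.4% the TATA box and 39 (0.119%) both. The window of the first annotated Errfi1 start (chr4:150853546-150853795) held none of the motifs searched. These were also AP-1 (TGANTCA, in 6.75% of windows), the antioxidant response element core (TGACNNNGC, 10.2%), Egr (GCGTGGGCG, 0.536%), the GC box (GGGCGG, 32.7%), the CArG box (1.47%) and the short CRE motif TGACG (17.8%), which is part of the CRE, each on both strands. Apart from its CRE, the Areg window held TGACG 115 bases before the start. The Egfr window held a GC box alone, and GC boxes also lay in the Areg window and that of the second Errfi1 start. The Tgfa and Btc windows held neither the CRE nor the TATA box. No match for AP-1 or the antioxidant core was found in the Areg window, which says only that those letters are not there. Ereg, Hbegf and Phlda1 are named only.

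Ereg encodes epiregulin, a ligand of EGFR and ErbB4. Its 2 probes disagreed. The brighter, designed on the clone AK019057, gave 8.46% and 9.64% in untreated cells, 29.5% and 29.1% at 2 h, and 35.6% and 30.1% at 4 h, with all 6 arrays above background. Both treated groups lay above the untreated arrays and overlapped neither of them. It rose 3.24-fold at 2 h (1.70 ± 0.11, adjusted p = 0.00107) and 3.62-fold at 4 h (1.86 ± 0.11, adjusted p = 0.000971). No difference between 4 h and 2 h passed (0.16, 95% interval -0.14 to 0.46, adjusted p = 0.354).

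The other Ereg probe, on the curated transcript NM_007950, gave 2.48% and 2.88% in untreated cells, 4.83% and 5.11% at 2 h, and 3.77% and 1.97% at 4 h. Replicate 2 of the untreated arrays and both 2 h arrays lay above background, and neither 4 h array did. The 2 h arrays were higher than the others, and the 4 h arrays straddled the untreated ones. The change at 2 h did not pass (0.90 ± 0.32, 95% interval 0.06 to 1.73, adjusted p = 0.0898). In a fit of the 2 groups alone the adjusted p was 0.0115, in a probe that met the filter through the 2 h arrays. The fits without either 4 h array repeat that fit for this comparison. At 4 h the log2 change was 0.03 (95% interval -0.81 to 0.87, adjusted p = 0.952). The 4 h level was lower than the 2 h level by at least 1.38-fold without passing the test (-0.87 ± 0.32, adjusted p = 0.112), and it was -1.34 (adjusted p = 0.0202) without replicate 1 of the 4 h arrays and 0.44 (adjusted p = 0.478) under normexp with the 75th percentile.

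The positions in the files bear on which probe reads Ereg. The AK019057 probe lies 40686 bases before the NM_007950 probe and runs in the opposite orientation, between that probe and the probe of Epgn (57540 bases before it). In the RefSeq table Ereg spans 19033 bases, and 1 gene, the long noncoding Gm19610, is annotated between Epgn and Ereg. The file nonetheless describes the clone as epiregulin. The 2 probes lie farther apart than the 19033 bases of Ereg, so both cannot lie within that gene as annotated. Whether the stronger values belong to Ereg was not tested. The rise under that name rests on the AK019057 probe, since the NM_007950 probe did not pass at 2 h or 4 h. No annotated gene lies between Ereg and Areg, and the Areg probe lies 48431 bases beyond the NM_007950 probe. Epgn, which encodes the ligand epigen, gave 2.73% and 2.76% in untreated cells, 5.25% and 23.6% at 2 h, and 6.65% and 7.04% at 4 h.

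Hbegf encodes heparin-binding EGF-like growth factor, a ligand of EGFR and ErbB4. It gave 328% and 314% in untreated cells, 832% and 818% at 2 h, and 379% and 364% at 4 h, all above background. The 2 h arrays stood apart from the other 4, and the 4 h arrays lay just above the untreated ones. Hbegf rose 2.57-fold at 2 h (1.36 ± 0.06, adjusted p = 0.000444), with 1.34 and 1.38 on the 2 slides. Against 2 h it fell by 1.15 ± 0.06 on the log2 scale at 4 h (adjusted p = 0.00207). The small rise that remained at 4 h (0.21 ± 0.06, 1.16-fold, adjusted p = 0.0498) turned sign without scaling and under spike-in scaling (-0.049 and -0.051) and was lost without any 1 of the 6 arrays (adjusted p between 0.0953 and 0.212). In all 14 of 18 alternatives ended that call.

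Tgfa encodes transforming growth factor alpha and Btc betacellulin, both EGF receptor ligands. The brighter Tgfa probe, printed as 10 spots, gave 2.49% and 2.89% in untreated cells, 2.69% and 3.79% at 2 h, and 4.01% and 3.52% at 4 h. It lay above background on replicate 2 of the untreated and of the 2 h arrays only, so it was not tested, and its 10 spots varied with a log2 SD between 0.24 and 0.37 within an array. The other Tgfa probe and both Btc probes lay above background on no array, with signals of at most 1.85%. Their levels at this signal were not measurable, which does not show that these transcripts were absent.

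The receptor was read by 6 Egfr probes, which did not move together. The brightest, on transcript variant 1 (NM_207655, the full-length receptor), gave 472% and 488% in untreated cells, 442% and 437% at 2 h, and 452% and 461% at 4 h. Both treated groups lay just under the untreated arrays. Neither change passed the test, at -0.13 (95% interval -0.28 to 0.02, adjusted p = 0.152) at 2 h and -0.07 (-0.22 to 0.08, adjusted p = 0.370) at 4 h. It fell at 2 h under quantile normalization (-0.23, adjusted p = 0.0436), without scaling (-0.46, adjusted p = 0.0237) and under spike-in scaling (-0.58, adjusted p = 0.00309), the last also at 4 h (-0.33, adjusted p = 0.0187). Its 10 spots varied by a log2 SD of 0.028 to 0.045 within an array. The dimmer probe on the same transcript, 1634 bases before it, gave 31.5% and 34.5%, 33.2% and 33.6%, and 34.6% and 35.2% at 0, 2 and 4 h, with 0.02 (adjusted p = 0.851) and 0.08 (adjusted p = 0.384) at 2 h and 4 h. After spike-in scaling its 2 h change was -0.43 (adjusted p = 0.0126).

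Egfr also has a shorter transcript, variant 2 (NM_007912), on which 2 probes were designed, 30270 and 26430 bases before the brightest probe. The dimmer of these, printed as 10 spots, gave 50.1% and 49.9% in untreated cells, 62.7% and 60.7% at 2 h, and 60.7% and 57.9% at 4 h, with no overlap between treated and untreated arrays. It rose by 0.30 ± 0.06 at 2 h (adjusted p = 0.0203) and 0.25 ± 0.06 at 4 h (adjusted p = 0.0318), but without scaling (-0.034 and -0.014) and under spike-in scaling (-0.15 and -0.016) the sign turned. The 2 h call was lost without any 1 of the 2 h or untreated arrays (adjusted p between 0.0763 and 0.104), and the 4 h call without any 1 of the 6 arrays (0.0646 to 0.134). The brighter gave 71.7% and 66.1% in untreated cells, 76.0% and 69.2% at 2 h, and 85.0% and 78.3% at 4 h. It did not pass at 2 h (0.08, adjusted p = 0.535, and -0.38, adjusted p = 0.0137, after spike-in scaling) or at 4 h (0.24, adjusted p = 0.0858). With the replicate as a block the 4 h change passed (adjusted p = 0.0175), as did that between 4 h and 2 h (0.17, adjusted p = 0.0487 with the block and 0.222 without).

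The fifth Egfr probe, designed on the clone AK033431 and lying 3815 bases beyond the brightest one, fell. It gave 24.5% and 27.9% in untreated cells, 14.7% and 12.7% at 2 h, and 14.4% and 16.5% at 4 h. All treated arrays lay under both untreated ones. The fall was -0.94 ± 0.13 at 2 h (adjusted p = 0.00693) and -0.77 ± 0.13 at 4 h (adjusted p = 0.0109), and the 2 times did not differ past the test (0.17, 95% interval -0.16 to 0.50, adjusted p = 0.371). The 4 h call was lost without untreated replicate 2 (-0.67, adjusted p = 0.0537), and normexp with the 75th percentile ended both (-0.59, adjusted p = 0.250, and -0.16, adjusted p = 0.641). Normexp with quantile normalization kept both (-0.67, adjusted p = 0.00181, and -0.54, adjusted p = 0.00362). The sixth probe, on the clone AK049452 and 158177 bases before the brightest in a gene annotated as 161705 bases long, lay above background on untreated replicate 2 alone and was not tested. Which Egfr transcripts these clone probes read was not tested.

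**Figure D2:**
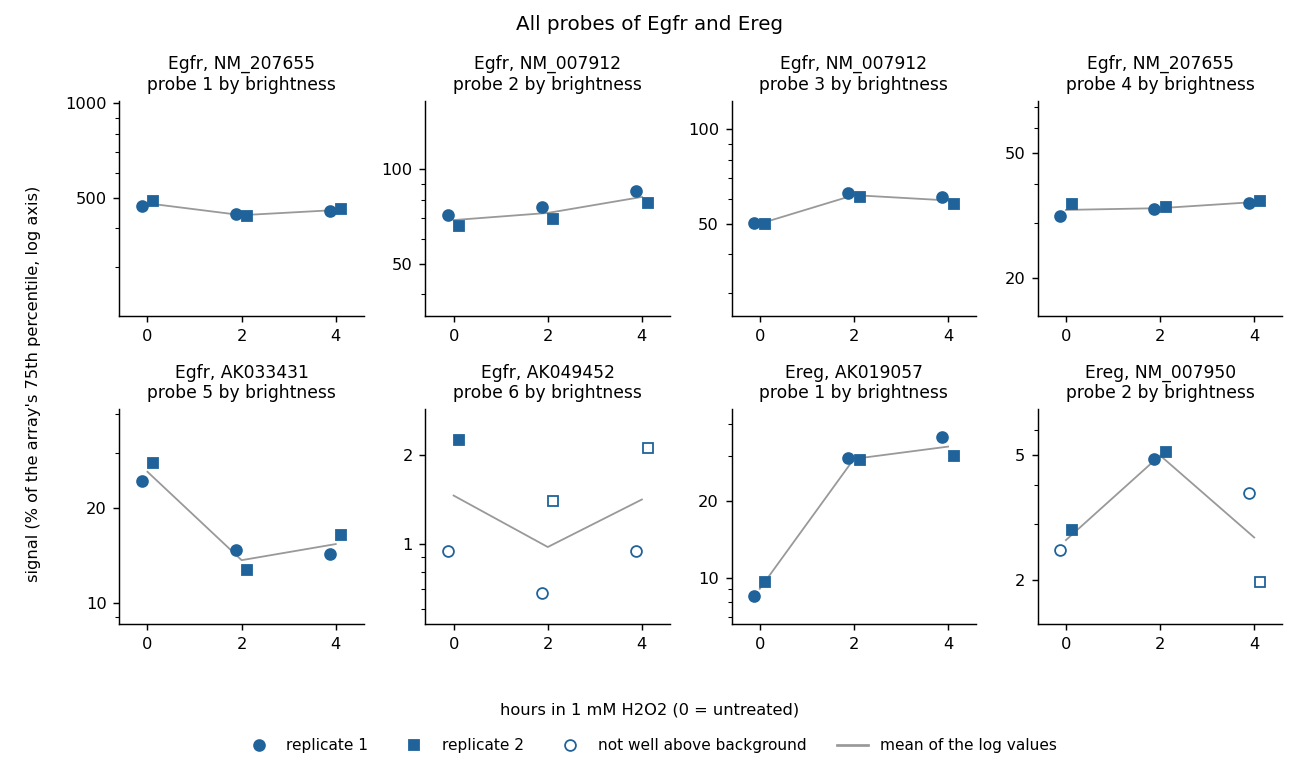
Signal of the 6 Egfr and 2 Ereg probes, as a percent of the array's 75th percentile on a log axis, against hours in 1 mM H2O2 (0 is untreated). Symbols are replicates, open where not well above background, and lines join the means of the log values. Egfr probe 5 lies between 12.7% and 16.5% on the treated arrays and at 24.5% and 27.9% on the untreated ones, and the Ereg probes part at 4 h.

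Both feedback genes rose at both times. Errfi1 encodes Mig-6, which binds the kinase domain of the EGF receptor and inhibits it. It gave 841% and 870% in untreated cells, 2745% and 2694% at 2 h, and 1325% and 1369% at 4 h, and the groups did not overlap. Errfi1 rose 3.18-fold at 2 h (1.67 ± 0.06, adjusted p = 0.000290) and 1.57-fold at 4 h (0.65 ± 0.06, adjusted p = 0.00228). At 4 h it was lower than at 2 h by a log2 change of -1.01 ± 0.06 (adjusted p = 0.00223). All 3 calls held under each of the 18 alternatives, with log2 changes between 1.22 and 1.70 at 2 h and between 0.39 and 0.68 at 4 h.

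Phlda1 encodes a protein with a pleckstrin homology-like domain, described in human cells as a brake on ErbB receptor signalling. It gave 232% and 215% in untreated cells, 632% and 630% at 2 h, and 467% and 450% at 4 h, again without overlap. The rise was 2.83-fold at 2 h (1.50 ± 0.07, adjusted p = 0.000441) and 2.05-fold at 4 h (1.04 ± 0.07, adjusted p = 0.00106). It fell by 0.46 ± 0.07 on the log2 scale at 4 h against 2 h (adjusted p = 0.0109), a call lost without either 2 h array (adjusted p = 0.0623 and 0.0593) or without replicate 2 of the 4 h arrays (adjusted p = 0.0537). It was also lost with no filter on dim probes (adjusted p = 0.0514) and under normexp with the 75th percentile (-0.54, adjusted p = 0.0839), and it was kept at a smaller -0.27 (adjusted p = 0.0303) under spike-in scaling.

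**Figure D3:**
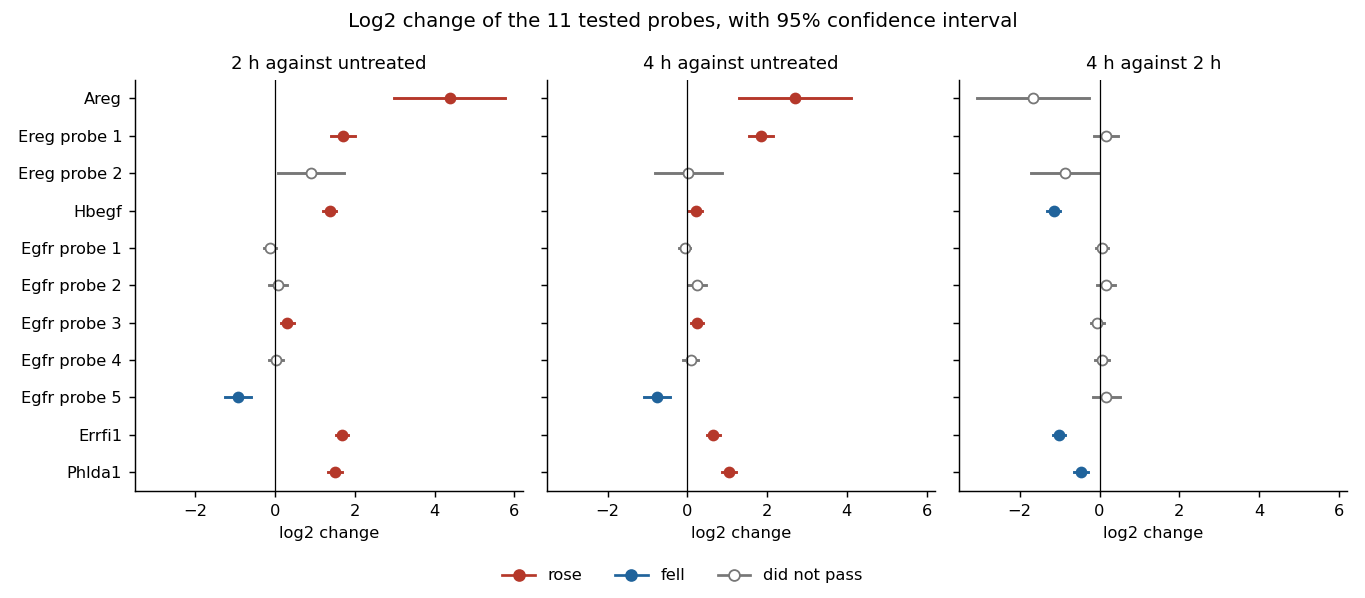
Log2 change of each of the 11 tested probes (points) with its 95% confidence interval (bars) at 2 h against untreated, 4 h against untreated and 4 h against 2 h. Red points rose, blue points fell and open points did not pass. Areg has the widest interval (2.97 to 5.78 at 2 h), and Hbegf, Errfi1 and Phlda1 fell between 2 h and 4 h.

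Patterns over the 6 arrays were compared with 25841 probes that had a value on every array, of which 18800 carried a gene symbol, after subtracting each probe's mean, and the genes nearest by root mean square log2 distance are given as a description. Nearest to Hbegf were Axud1 (0.063), Sv2a (0.079) and Otub2 (0.091). Nearest to Errfi1 were Ppp1r10 (0.083), Cd300e (0.095) and Lrrc23 (0.113). Phlda1 was nearest to Pvr (0.044), Senp5 (0.052) and Wnt6 (0.055). The brighter Ereg probe was nearest to Grin3b (0.076), Klhdc1 (0.091) and Ddc8 (0.092). Areg, whose untreated values were dim, had its nearest at larger distances, Rap2ip (0.220), Wdr27 (0.324) and Mmp25 (0.334). The brightest Egfr probe was nearest to Arhgef2 (0.019), Tex261 (0.020) and Ubxd8 (0.021), which were likewise nearly flat. Otub2, Cd300e, Wdr27 and Mmp25 lay above background on only 2 of the 6 arrays, and Rap2ip and Ubxd8 on 4. Their patterns thus rest partly on dim values.

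Of the other ErbB ligands 3 of 6 were tested, and none rose at either time. Egf, the epidermal growth factor itself, fell on its 1 probe at 2 h (-1.12 ± 0.14, adjusted p = 0.00557) and at least 1.47-fold at 4 h (fitted -1.14 ± 0.14, adjusted p = 0.00500). Egf passed the filter through the untreated arrays alone, where it was highest (4.79% and 5.80%). It was dim on replicate 1 at 2 h (2.55%, with 2.32% on replicate 2) and on both 4 h arrays, so its falls are set against signals near background, and normexp with the 75th percentile turned the 4 h sign (0.49, adjusted p = 0.353). Nrg1, which encodes neuregulin 1, a ligand of ErbB3 and ErbB4, did not pass at 2 h (0.20 ± 0.07, adjusted p = 0.0831, -0.13 without scaling and -0.25 under spike-in scaling) and fell at 4 h (-0.31 ± 0.07, adjusted p = 0.0253). Its other 4 probes gave between -0.54 and 0.35 at 2 h, where the lowest of them fell (adjusted p = 0.0170). At 4 h they gave between -0.60 and 0.79. The list's median log2 change was 0.20 at 2 h and -0.31 at 4 h, beside 0.10 and 0.06 for all tested probes. The counts and medians of this and the following lists take the brightest probe of each gene alone. Dimmer probes of some genes passed where the brightest did not, and they are not counted. Beside these counts, 21.2% of all tested probes rose and 14.5% fell at 2 h. At 4 h these shares were 23.0% and 17.6%.

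Among the other 3 receptors 1 fell at each time. This was Erbb2, the partner receptor with no known ligand of its own, with 121% and 114% at 2 h and 91.9% and 82.8% at 4 h, against 186% and 173% in untreated cells. Its log2 change was -0.61 ± 0.09 at 2 h (adjusted p = 0.00773) and -1.04 ± 0.09 at 4 h (adjusted p = 0.00186), and a second probe gave -0.69 and -0.92. The list's median was 0.09 at 2 h and -0.10 at 4 h.

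Of 10 genes of ligand shedding 2 rose and 1 fell at 2 h, and 2 rose at 4 h, with medians of 0.10 and 0.05 (all tested probes: 21.2% rose and 14.5% fell at 2 h, 23.0% and 17.6% at 4 h). Rhbdf2, which encodes the rhomboid-like partner iRhom2 of the sheddase ADAM17, gave 49.2% and 48.1% at 2 h and 109% and 100% at 4 h, against 35.8% and 31.1% in untreated cells. It rose by 0.55 ± 0.10 at 2 h (adjusted p = 0.0142) and 1.65 ± 0.10 at 4 h (adjusted p = 0.000834), with 0.63 and 1.76 from its second probe, and it was higher at 4 h than at 2 h (1.11 ± 0.10, adjusted p = 0.00375). Adam17 itself did not pass at 2 h (0.06, adjusted p = 0.645) or 4 h (-0.11, adjusted p = 0.408), and after spike-in scaling it fell at 2 h (-0.39, adjusted p = 0.0290). Adam19 fell at 2 h (-0.54 ± 0.14, adjusted p = 0.0397) and did not pass at 4 h (-0.34, adjusted p = 0.113) on its brightest probe. Another of its probes, not counted, fell at 2 h (-0.63, adjusted p = 0.00242) and 4 h (-0.34, adjusted p = 0.0126). The dimmest passed at neither time (-0.26 and -0.29). Adam8 rose by 0.26 ± 0.07 at 2 h (adjusted p = 0.0483, but -0.082 with no scaling and -0.20 under spike-in scaling) and by 0.42 ± 0.07 at 4 h (adjusted p = 0.0114).

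In the adaptor and Ras-ERK list 14 of 15 genes were tested. At 2 h none rose and 2 fell, and at 4 h 1 rose and 5 fell, with medians of -0.01 and -0.04 (all tested probes: 21.2% rose and 14.5% fell at 2 h, 23.0% and 17.6% at 4 h). Gab1, a docking adaptor, fell at 2 h (-0.60 ± 0.08, adjusted p = 0.00742) and was higher at 4 h than at 2 h (0.65 ± 0.08, adjusted p = 0.00813). Braf, a kinase between Ras and MEK, fell on its brightest probe at both times (-0.35 ± 0.06, adjusted p = 0.0125, and -0.58 ± 0.06, adjusted p = 0.00309). Another of its probes rose at 2 h (0.46, adjusted p = 0.00767) and 4 h (0.23, adjusted p = 0.0429), and 1 more fell at 2 h (-0.90, adjusted p = 0.0202). Sos1, an exchange factor that loads Ras, fell at 4 h (-0.38 ± 0.08, adjusted p = 0.0185, but 0.065 under normexp with the 75th percentile).

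Among other feedback genes of the receptor and of Ras 14 of 17 were tested, 2 rose and 4 fell at 2 h, and 2 rose and 3 fell at 4 h, with medians of 0.07 and -0.04 (all tested probes: 21.2% rose and 14.5% fell at 2 h, 23.0% and 17.6% at 4 h). Of the Sprouty genes, inhibitors of growth factor signalling to Ras, Spry1 and Spry2 moved in opposite directions, and Spry3 and Spry4 lay above background on no array. Spry1 gave 167% and 167% at 2 h and 360% and 365% at 4 h, against 833% and 784% in untreated cells. It fell by 2.27 ± 0.06 on the log2 scale at 2 h (adjusted p = 0.000186) and by 1.16 ± 0.06 at 4 h (adjusted p = 0.000730), and was higher at 4 h than at 2 h (1.12 ± 0.06, adjusted p = 0.00214). Spry2 gave 355% and 357% at 2 h and 207% and 202% at 4 h, against 182% and 181% in untreated cells. It rose at 2 h (0.97 ± 0.06, adjusted p = 0.000728, second probe 0.67), did not pass at 4 h (0.17 ± 0.06, adjusted p = 0.0636, and -0.086 without scaling and -0.088 under spike-in scaling), and was lower at 4 h than at 2 h (-0.80 ± 0.06, adjusted p = 0.00265). Spry1 was lowest and Spry2 highest at 2 h, the time at which Hbegf and Errfi1 were highest.

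Lrig2 and Lrig3, membrane proteins related to the EGF receptor inhibitor Lrig1, fell at 2 h (-0.79 ± 0.08, adjusted p = 0.00328, and -0.60 ± 0.08, adjusted p = 0.00634) and at 4 h (-0.64 ± 0.08 and -0.36 ± 0.08). A second Lrig2 probe fell at 2 h (-0.52) and rose at 4 h (0.69, adjusted p = 0.00199). The Phlda1 relatives both rose. Phlda2 rose by 1.03 ± 0.15 at 2 h (adjusted p = 0.00877) and 0.53 ± 0.15 at 4 h (adjusted p = 0.0488), and Phlda3, an inhibitor of Akt, by 0.74 ± 0.07 (adjusted p = 0.00280) and 0.92 ± 0.07 (adjusted p = 0.00168).

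**Figure D4:**
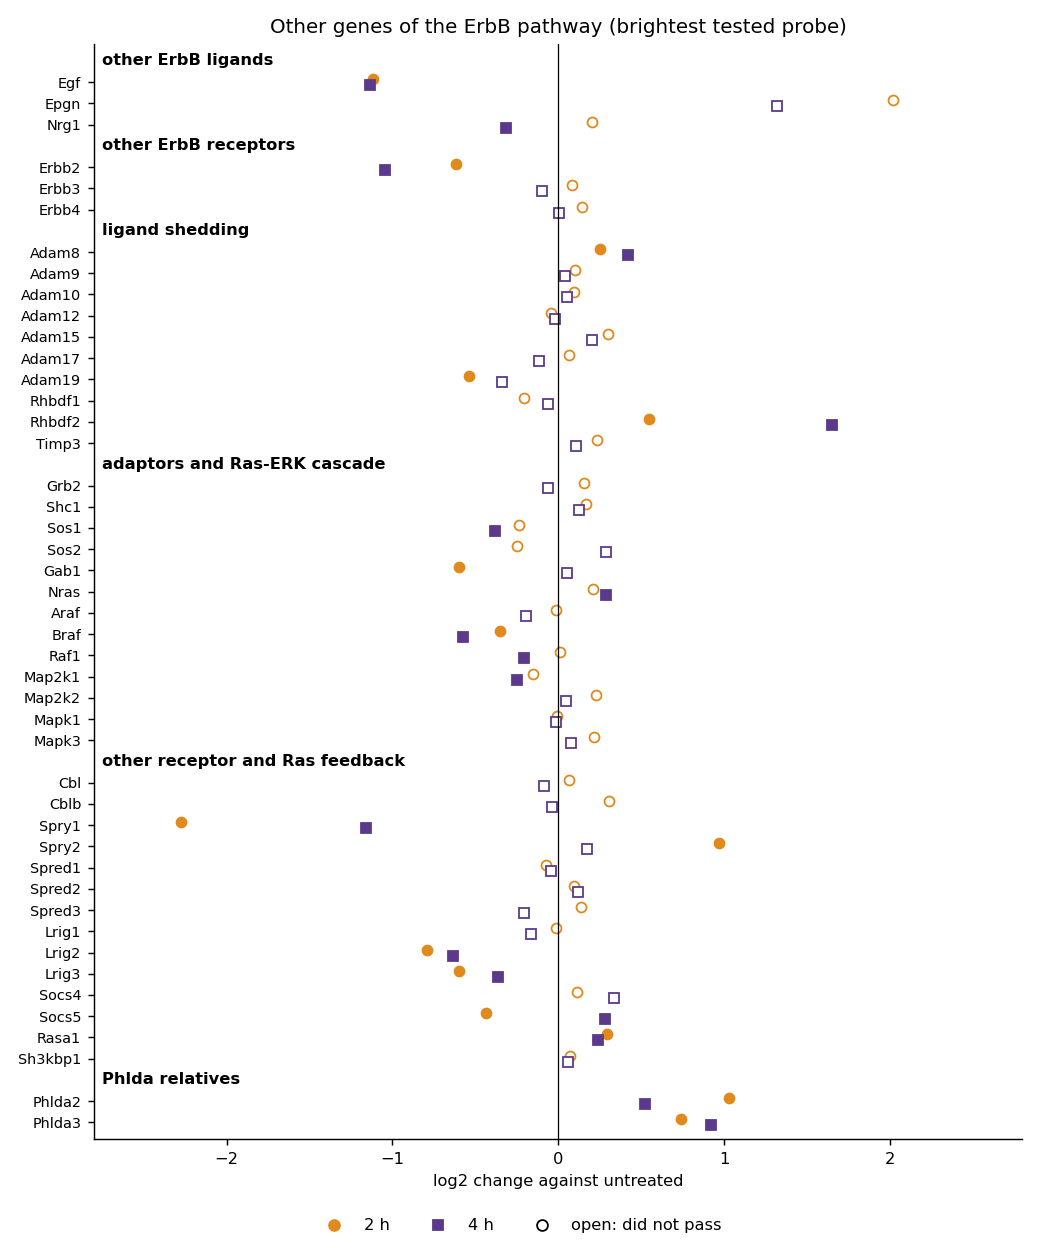
Log2 change of the brightest tested probe of other ErbB pathway genes, 1 row per gene in 6 lists with 1 tested gene not shown, at 2 h (orange circles) and 4 h (purple squares) against untreated. Filled symbols passed the test and open ones did not. Spry1 lies farthest to the left (-2.27 at 2 h), and Rhbdf2 farthest to the right among those that passed (1.65 at 4 h).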

How the data were processed

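RNA of 6 samples was hybridised to 1-colour (Cy3) Agilent arrays. Per the file headers, the authors' signals came from Feature Extraction 9.5.3.1. The deposited scanner files hold fluorescence intensity per spot, and the processed intensity is background-subtracted. The deposited table of values equals it within 0.0005 and was not used further. No source used here gives the genome build of the probe positions, so only distances are printed.

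From the deposited intensity, log2 values were computed here, minus each array's 75th percentile over 43379 non-control spots. Spots flagged as outliers were left out, and repeated spots were averaged. All 6 arrays were fitted per probe in R 4.3.3 with the limma package, version 3.58.1, and adjusted by the Benjamini-Hochberg method, after a test on simulated data. Promoters came from RefSeq, build GRCm38.p6, which held entries for 5 of the 8 genes. Motifs were searched in the 250 bases before each start.

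All member probes are reported. Of 6 lists of other pathway genes up to 4 are named, those with the largest change among the called, plus Adam17, Erbb2 and Nrg1. The values of 1 listed gene are not reported here. Members, lists and tests were chosen with earlier results of these data known. Slide and replicate number coincide, and same-numbered arrays deviated together (r = 0.215, 0.190 and 0.210 over 25841 probes), so the replicate was also fitted as a block. In all, 18 alternatives of scaling, background, filter, fit and arrays were run.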

Additional observations from a re-analysis of the deposited data

Results flagged for a closer look

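3 transcripts gave different effects at the 2 times, by the test of 4 h against 2 h itself. Hbegf was lower at 4 h than at 2 h by a log2 change of -1.15 (adjusted p = 0.00207), with 379% and 364% at 4 h and 832% and 818% at 2 h. Errfi1 was lower by -1.01 (adjusted p = 0.00223), with 1325% and 1369% at 4 h and 2745% and 2694% at 2 h. Phlda1 was lower by -0.46 (adjusted p = 0.0109), with 467% and 450% at 4 h and 632% and 630% at 2 h. The values held the same direction on both slides for each of these genes. A passed test on 2 arrays a group nearly implies that, so it adds no support. The Phlda1 call was lost under some alternatives, as given above.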

How the results depend on the processing

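The calls of Ereg (AK019057 probe), Hbegf, Errfi1 and Phlda1 at 2 h passed under all 18 alternatives, as did those of the same Ereg probe, Errfi1 and Phlda1 at 4 h and the 4 h against 2 h falls of Hbegf and Errfi1. Of all single-probe values under alternatives, 487 kept direction and side of the threshold, 39 lost the call, 18 gained one and 29 turned sign. Spike-in scaling turned, at 2 h, the variant 2 Egfr probes (-0.38 for the brighter, -0.15 for the dimmer) and the dimmer variant 1 Egfr probe (-0.43), and at 4 h Hbegf (-0.051), the same Egfr probes (-0.017, -0.016 and -0.18) and the curated Ereg probe (-0.23). No scaling turned the same values (-0.26, -0.034 and -0.32 at 2 h, and -0.049, -0.015, -0.014, -0.18 and -0.23 at 4 h). For 4 h against 2 h the dimmer variant 2 probe turned under spike-in scaling (0.13), no scaling (0.021) and normexp (0.021), the curated Ereg probe (0.44) and the brightest Egfr probe (-0.028) under normexp. The dimmer variant 1 probe also turned at 2 h with quantile normalization (-0.030), with normexp and quantile normalization (-0.039) and without untreated replicate 1 (-0.046, in a range of -0.046 to 0.083 over fits without 1 array), and at 4 h with normexp and quantile normalization (-0.017). The curated Ereg probe at 4 h did so with quantile normalization (-0.19), with both (-0.0045) and without untreated replicate 1 (-0.080) or 4 h replicate 1 (-0.44, in a range of -0.44 to 0.50). Normexp by itself means that with the 75th percentile.

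Probes called over the whole array numbered 9235 at 2 h, 10510 at 4 h and 7274 for 4 h against 2 h. Normexp with the 75th percentile left 1695, 2767 and 1030, no filter on dim probes 5303, 6264 and 3381, and spike-in scaling gave 15414 at 2 h. Leaving out 1 array gave 4772 to 8297, 5735 to 8662 and 3169 to 5632. With the replicate block the counts were 12298, 13009 and 9574, and 1 member probe rose between 2 h and 4 h, where none did without it. The block changed the calls of the brighter variant 2 Egfr probe at 4 h and for 4 h against 2 h, and no other member call. At 4 h, 56.7% of called probes rose, against 45.4% with quantile normalization, 45.7% with normexp and quantile normalization, 23.9% with no scaling, 23.5% under spike-in scaling and 68.9% under normexp. For 4 h against 2 h the share was 47.3%, against 62.3% with no scaling, 76.7% under spike-in scaling and 82.8% under normexp, and at 2 h 59.4%, against 44.1% with normexp and quantile normalization. With no filter on dim probes it was 59.3% for 4 h against 2 h, and without 2 h replicate 1 or 2 it was 58.9% or 57.6%.

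Of the member probes, those that fell at 2 h (1) numbered 2 with quantile normalization (with or without normexp) and with no scaling, 4 under spike-in scaling, and 0 under normexp with the 75th percentile and with 1 row per gene, which drops the clone probe. Those that rose at 4 h (6) numbered 3 under normexp and 3 to 4 without 1 array. Those that fell at 4 h (1) numbered 2 after spike-in scaling, 0 under normexp and with 1 row per gene, and 0 to 1 without 1 array. Between 2 h and 4 h 1 rose after spike-in scaling. Where no cause is named, the cause was not tested. With 1 array left in a group, its spread was taken from the other groups. Areg, the curated Ereg probe, Tgfa and Btc were limited by signal near background.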
